A study of Mus musculus with 6 samples.

Results

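The genes described here encode the enzymes that build glycerophospholipids and triglycerides and exchange their acyl chains. The list names 34 genes, and the rule kept those whose mean level over the 6 libraries was at least 1 TPM (a share of the library's transcripts, scaled per transcript length). It kept 32 of the 34, out of 11551 genes that passed the same filter among 36333 listed. Dgat2 and Mboat2 lay below it. Cells of the stearic acid group were C57BL/6 bone marrow derived macrophages treated for 24 h with 100 µM stearic acid, a saturated fatty acid (3 libraries). The vehicle group was the same kind of cell given an equal volume of the vehicle (EtOH in the library names) for 24 h (3 libraries). All cells had been grown from marrow for 7 days in 10 ng/mL M-CSF and replated at 250000 cells per well of a 24-well plate. Polyadenylated RNA was sequenced. The origin of the replicates (different mice, different wells) is not stated, so the p-values refer to the scatter of these 6 libraries, part of which could be technical.

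Cells make glycerolipids by adding acyl chains to glycerol 3-phosphate, which yields lysophosphatidate and then phosphatidate. Phosphatidate is either dephosphorylated to diacylglycerol, the precursor of triglycerides and, through the Kennedy pathway, of phosphatidylcholine and phosphatidylethanolamine, or activated to CDP-diacylglycerol, the precursor of phosphatidylinositol and cardiolipin. Finished phospholipids are then remodelled in the Lands cycle, in which phospholipases remove a chain and lysophospholipid acyltransferases put back another. In macrophages this cycle sets how much arachidonate the membranes hold, and storage of excess fatty acid as triglyceride is a known response to lipid loading.

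With stearic acid, 9 of the 32 genes changed (limma, Benjamini-Hochberg adjusted p below 0.05 over all genes tested), 5 higher and 4 lower. The 5 that rose were the lysophosphatidate acyltransferases Agpat1, Agpat2, Agpat4 and Agpat5 and the lysophospholipid acyltransferase Lpcat3. The 4 that fell were the lysophosphatidylcholine acyltransferases Lpcat1 and Lpcat2, the CDP-diacylglycerol synthase Cds1 and the choline/ethanolamine phosphotransferase Cept1. As a share, 28.1% of these genes changed, against 24.7% of all genes tested (12.8% higher and 11.9% lower), so the count lay near the background. Groups did not overlap in 14 of the 32 genes (43.8%), against 44.6% of all genes tested. Changes were small: the largest was 0.74 on the log2 scale, 0 genes reached a 2-fold change, and 3 passed 0.5 on the log2 scale, a size that 10.0% of tested genes reached. The median log2 change was -0.02 over the 32 genes and -0.03 over all genes tested. Their summed level was 1319 to 1359 TPM in stearic acid libraries and 1229 to 1369 TPM in vehicle libraries. TPM is a share of a library, so fewer cells expressing a gene and less of its RNA per cell cannot be told apart.

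**Figure D1:**
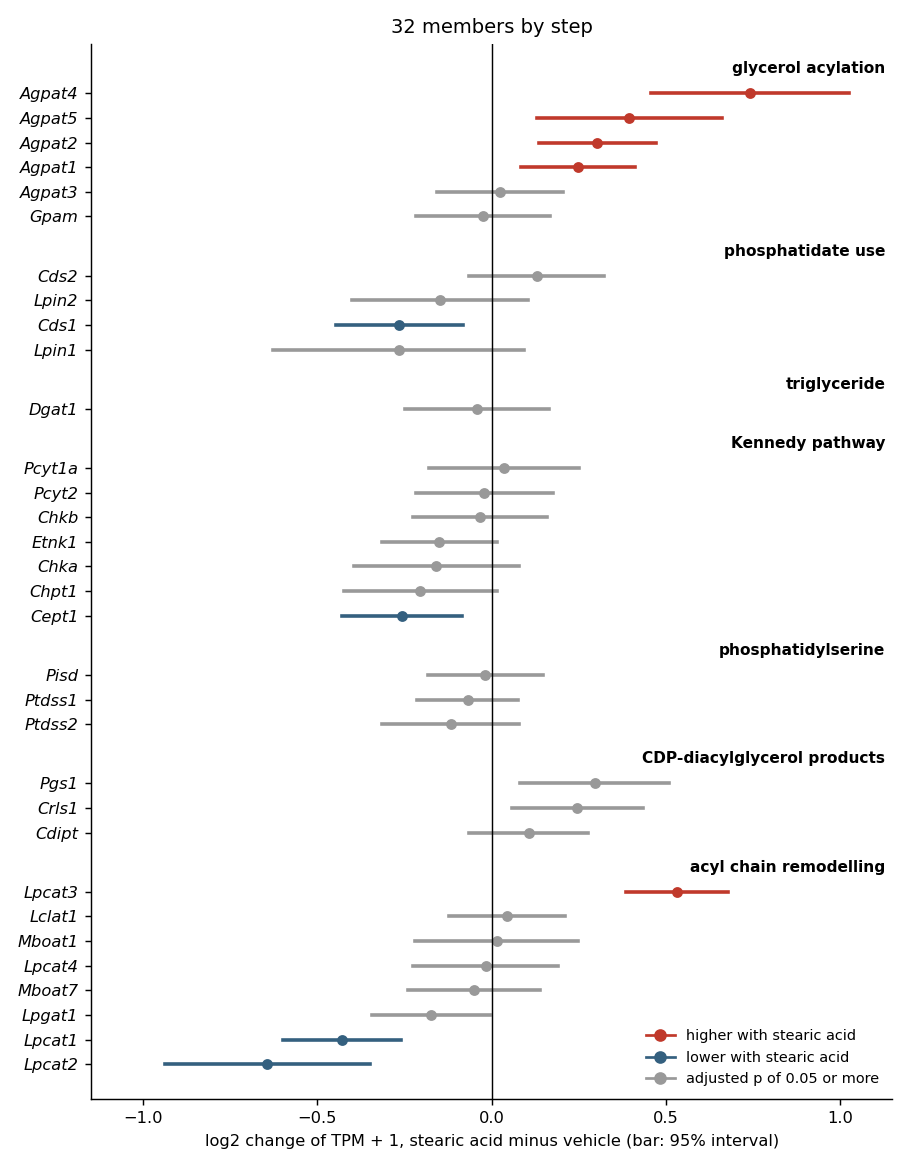
The log2 change of TPM + 1 (stearic acid minus vehicle, x axis) is plotted for 32 genes grouped by step, with 95% intervals as bars (n = 3 libraries per group). Red points mark the 5 genes that rose, blue points the 4 that fell and grey points the 23 that did not pass.

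To show the start regions of genes that moved in each direction, 300 bases around the start are given for Lpcat3 and Agpat4, which rose, and Lpcat2, which fell (RefSeq, GRCm38.p6, 250 bases before and 50 after a start, all on the + strand). Capitals mark the letters CCAAT or their reverse complement, the CCAAT box to which the factor NF-Y is known to bind. Lpcat3 lies at chr6:124662854-124663153, Agpat4 at chr17:12119034-12119333 and Lpcat2 at chr8:92855083-92855382.
Lpcat3: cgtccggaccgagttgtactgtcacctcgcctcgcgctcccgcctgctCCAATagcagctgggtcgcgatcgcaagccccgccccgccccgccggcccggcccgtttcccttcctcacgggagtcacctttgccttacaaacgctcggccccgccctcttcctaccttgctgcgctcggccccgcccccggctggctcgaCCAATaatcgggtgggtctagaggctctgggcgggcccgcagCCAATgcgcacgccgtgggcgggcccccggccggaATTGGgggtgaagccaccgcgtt
Agpat4: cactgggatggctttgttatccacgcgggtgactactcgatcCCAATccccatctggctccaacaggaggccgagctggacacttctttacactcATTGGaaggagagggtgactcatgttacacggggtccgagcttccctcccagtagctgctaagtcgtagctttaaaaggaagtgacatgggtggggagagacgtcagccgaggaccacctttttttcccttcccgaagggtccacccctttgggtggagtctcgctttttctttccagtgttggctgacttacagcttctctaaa
Lpcat2: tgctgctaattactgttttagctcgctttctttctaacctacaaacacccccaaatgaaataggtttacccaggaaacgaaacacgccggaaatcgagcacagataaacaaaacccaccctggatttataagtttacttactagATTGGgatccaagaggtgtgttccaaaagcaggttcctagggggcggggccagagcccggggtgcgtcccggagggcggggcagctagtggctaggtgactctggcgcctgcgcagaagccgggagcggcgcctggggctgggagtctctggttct

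These 3 windows hold 4, 2 and 1 CCAAT boxes in the order printed, counted on either strand. At least 1 is found in 37.4% of all 32851 RefSeq promoters. RefSeq gave a promoter for 28 of the 34 genes, 40 promoters in all, and 16 of the 40, from 15 of the 28 genes, hold a CCAAT box. Among the genes that rose, 3 of the 4 with a promoter had such a match (Agpat1, Agpat4 and Lpcat3), as had 2 of the 4 that fell (Cept1 and Lpcat2). These counts are per gene, in any of its promoters, and cannot be set directly against 37.4%, which is per promoter. Agpat1 and Cept1 also have promoters without a match. Agpat2, which rose, and Cds1 and Lpcat1, which fell, held none, and the windows printed were picked among those with a match. Further motifs were searched on both strands: the E-box CACGTG (7.15% of all promoters), the sterol element TCACNCCAC (1.24%), the ATF4 element TTGCATCA (0.895%) and the antioxidant element TGACNNNGC (12.4%). The E-box matched in 2 of the 40 promoters, from 2 genes, and the sterol element in 2, from 1 gene. The ATF4 element matched in 0 and the antioxidant element in 7, from 6 genes. Both sterol element matches are the same bases of Pcyt1a, seen in promoters that overlap, and an antioxidant match beside them is likewise counted in both. Of the 8 changed genes with a promoter, Cds1 held an antioxidant element match and the other 7 held none of these 4 motifs. A match is a string of letters and not evidence of binding.

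In acylation of the glycerol backbone, 4 of 6 genes rose and 0 fell, with a median log2 change of 0.28, beside 12.8% higher and 11.9% lower among all genes tested. The count was 1 with no filter on low values, and with 1 library left out it was 4, 2 and 1 on removal of treated replicates 1, 2 and 3, and 2, 0 and 1 on removal of vehicle replicates 1, 2 and 3. Agpat4, a lysophosphatidate acyltransferase (chromosome 17, 12118485 to 12219649, GRCm38), was at 32.4, 48.2 and 39.2 TPM in stearic acid replicates 1 to 3, against 23.7, 22.4 and 23.5 TPM in vehicle replicates 1 to 3. All 3 treated libraries lay above the 3 vehicle libraries, and replicate 2 was the highest. The mean was 39.9 ± 7.90 TPM with stearic acid and 23.2 ± 0.720 TPM with vehicle (SD, n = 3 each), a log2 change of 0.74 (SE 0.13, limma adjusted p = 0.0067). Agpat5, the family member placed in mitochondria and the endoplasmic reticulum (chromosome 8, 18846279 to 18884413), had 27.4, 39.2 and 32.5 TPM with stearic acid and 23.6, 25.0 and 25.2 TPM with vehicle. It rose by 0.40 on the log2 scale (SE 0.12, limma adjusted p = 0.039), with the same order of treated replicates as Agpat4.

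Agpat2, the enzyme whose human loss causes congenital lipodystrophy (chromosome 2, 26593057 to 26604417), was at 45.7, 43.2 and 42.3 TPM with stearic acid and 37.8, 34.8 and 33.3 TPM with vehicle. Its groups did not overlap, and the log2 change was 0.30 (SE 0.07, limma adjusted p = 0.022). Agpat1 (chromosome 17, 34604195 to 34613449), the most abundant of the family per length, had 89.5, 94.1 and 92.5 TPM in treated libraries and 80.2, 71.2 and 81.1 TPM in vehicle libraries. It rose by 0.25 on the log2 scale (SE 0.07, limma adjusted p = 0.037). Agpat3, also a family member, did not pass (log2 0.02, 95% interval -0.16 to 0.20), and neither did Gpam, which encodes the mitochondrial enzyme that adds the first acyl chain (log2 -0.03, interval -0.22 to 0.17). The summed level of Agpat1 to Agpat5 was 216, 244 and 227 TPM with stearic acid and 187, 172 and 184 TPM with vehicle. Agpat4 made up 15.0%, 19.7% and 17.3% of that sum in treated libraries and 12.7%, 13.02% and 12.8% in vehicle libraries.

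**Figure D2:**
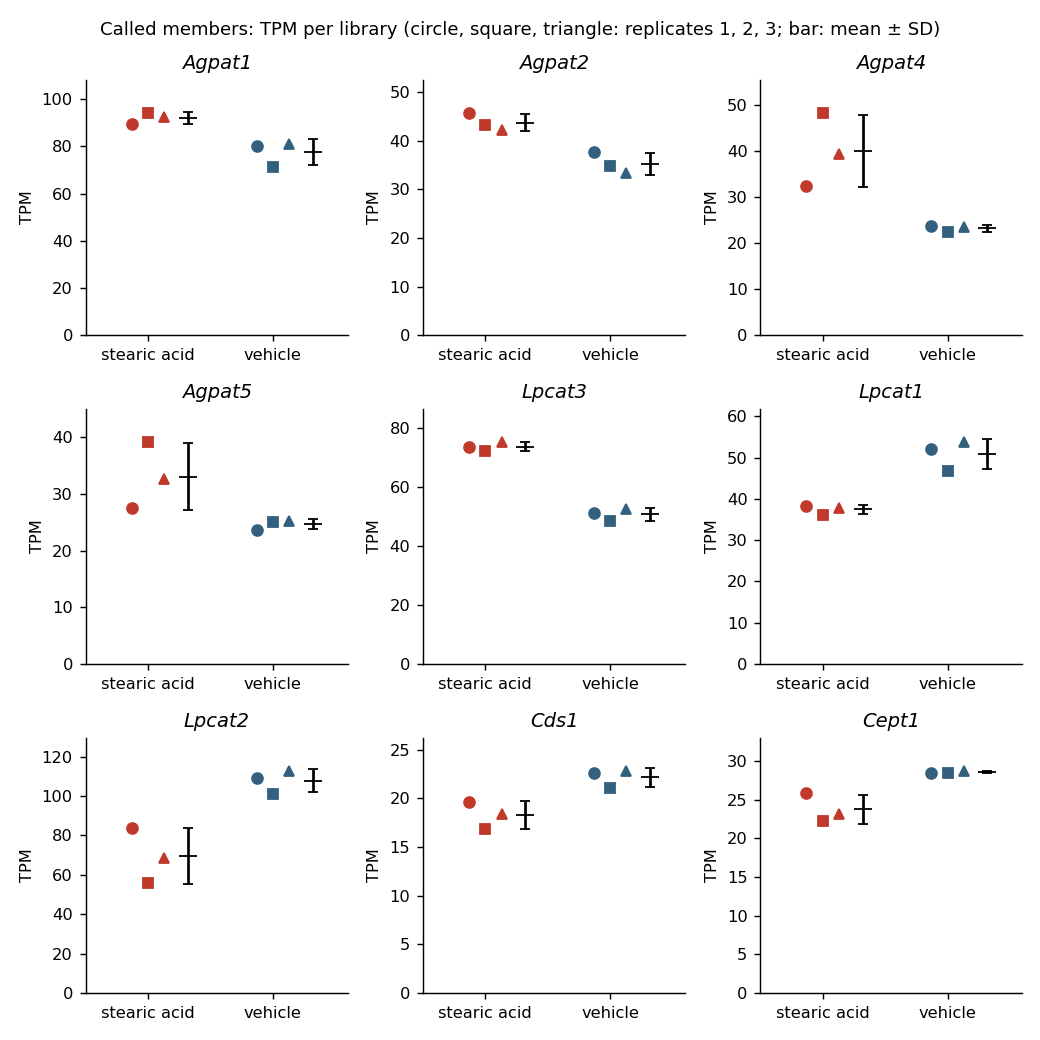
TPM (y axis, from 0) of the 9 genes that changed is shown for each stearic acid library (left, red) and vehicle library (right, blue), with circles, squares and triangles for replicates 1, 2 and 3 and bars for mean ± SD. In all 9 panels the treated and vehicle points do not overlap, and the treated replicates of Agpat4, Agpat5 and Lpcat2 are spread most widely.

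Remodelling genes went in both directions. Of 8 tested, 1 rose, 2 fell and 5 did not pass, beside 12.8% higher and 11.9% lower among all genes tested. The median log2 change was -0.03. Lpcat3, which prefers to add polyunsaturated chains such as arachidonate to lysophosphatidylcholine and is a known target of LXR (chromosome 6, 124663094 to 124704716), was at 73.6, 72.3 and 75.4 TPM with stearic acid, against 51.3, 48.5 and 52.5 TPM with vehicle. The treated libraries differed little from each other. Mean levels were 73.8 ± 1.53 and 50.8 ± 2.04 TPM in stearic acid and vehicle libraries (SD, n = 3 each), a 1.45-fold ratio and a log2 change of 0.53 (SE 0.07, limma adjusted p = 0.0019). Lpcat3 overlaps Emg1, a ribosome assembly gene on the other strand, by 347 bases. Emg1 had 116 TPM with stearic acid and 93.5 TPM with vehicle and did not pass (log2 0.30, limma adjusted p = 0.051). Whether strand was used in counting is not given in the sources used here, so reads from the shared bases cannot be assigned with certainty.

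Lpcat2 makes both phosphatidylcholine and the lipid mediator platelet-activating factor in inflammatory cells. On chromosome 8 (92855313 to 92919279), it was at 83.9, 55.8 and 68.6 TPM in treated libraries, against 109, 101 and 113 TPM in vehicle libraries. Every treated value lay below every vehicle value, with replicate 1 nearest to vehicle. The means were 69.5 ± 14.1 TPM with stearic acid and 108 ± 5.95 TPM with vehicle (SD, n = 3 each), and the log2 change was -0.64 (SE 0.13, limma adjusted p = 0.012). Capns2, a gene within an intron of Lpcat2 on the same strand, was at 1.72 TPM with stearic acid and 4.27 TPM with vehicle and also fell (log2 -0.98, limma adjusted p = 0.014). Lpcat1, which adds saturated chains and is known for making lung surfactant phosphatidylcholine (chromosome 13, 73467231 to 73516420), had 38.3, 36.2 and 37.8 TPM with stearic acid and 52.0, 46.7 and 53.8 TPM with vehicle. It fell by 0.43 on the log2 scale (SE 0.08, limma adjusted p = 0.0075).

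Within the Lpcat family the make-up differed between the groups. Lpcat3 held 34.6%, 39.2% and 37.4% of the summed Lpcat1 to Lpcat4 TPM in treated libraries and 22.1%, 22.6% and 22.0% in vehicle libraries. Lpcat2 held 39.5%, 30.2% and 34.0% with stearic acid and 47.0%, 47.2% and 47.3% with vehicle. The ratio of Lpcat3 to Lpcat2 TPM was therefore 0.876, 1.30 and 1.10 in stearic acid replicates 1 to 3 and 0.469, 0.479 and 0.465 in vehicle replicates 1 to 3. Lpcat3 was thus the less abundant of the pair per length in every vehicle library and the more abundant in treated replicates 2 and 3. These shares are a description of genes already tested above and carry no test of their own.

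**Figure D3:**
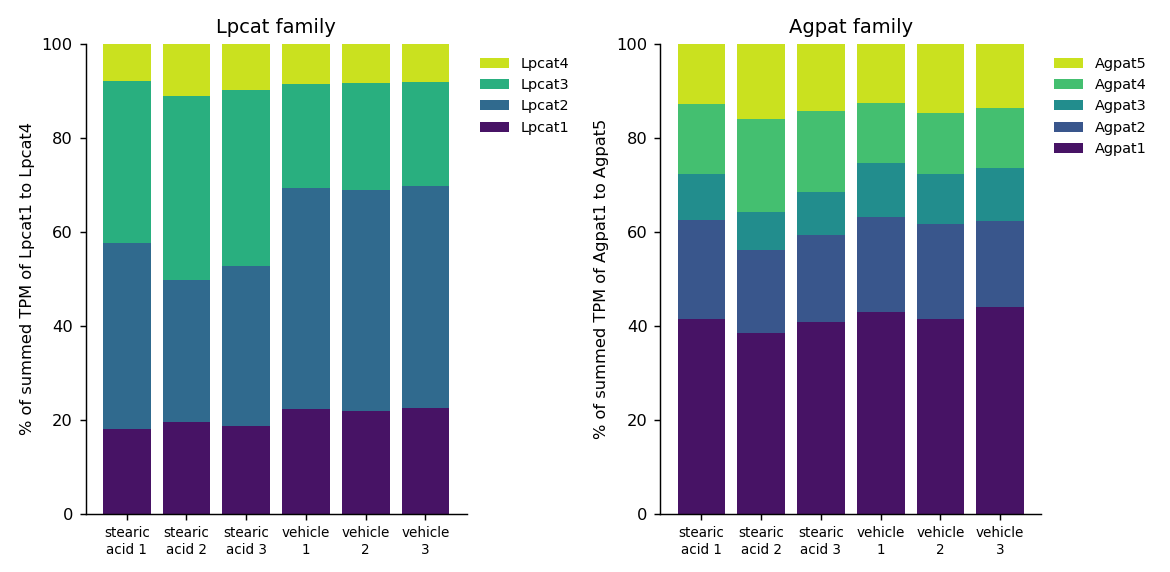
Bars give the percentage of summed TPM held by each gene of the Lpcat family (left panel) and of the Agpat family (right panel) in the 3 stearic acid libraries and then the 3 vehicle libraries. The Lpcat3 share is 34.6% to 39.2% in treated libraries and 22.0% to 22.6% in vehicle libraries, and the Agpat4 share is 15.0% to 19.7% and 12.7% to 13.02%.

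The other remodelling genes did not pass. Mboat7, which adds arachidonate to lysophosphatidylinositol, had a log2 change of -0.05 (95% interval -0.24 to 0.14), and Lclat1, a lysocardiolipin acyltransferase, one of 0.04 (interval -0.12 to 0.21). Lpcat4 and Mboat1, which act on lysophosphatidylethanolamine among others, were at log2 -0.02 and 0.01. Lpgat1, named for lysophosphatidylglycerol, had groups that did not overlap, with 22.3, 20.1 and 20.5 TPM in treated libraries and 24.1, 22.7 and 24.6 TPM in vehicle libraries, but did not pass (log2 -0.17, limma adjusted p = 0.11). Mboat2 was at 0.411, 0.591 and 0.702 TPM with stearic acid and 0.573, 0.453 and 0.529 TPM with vehicle. These values overlap (two-sided exact permutation p = 0.70, where 3 against 3 allow no p below 0.10).

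Of the 4 genes that use phosphatidate, 1 fell and 3 did not pass, beside 11.9% lower among all genes tested. Cds1, a CDP-diacylglycerol synthase (chromosome 5, 101765093 to 101823858), was at 19.7, 16.8 and 18.4 TPM in treated libraries and 22.6, 21.1 and 22.8 TPM in vehicle libraries. It fell by 0.26 on the log2 scale (SE 0.08, limma adjusted p = 0.043). Its more abundant paralogue Cds2 had 53.0, 50.9 and 49.3 TPM with stearic acid and 48.3, 41.4 and 50.5 TPM with vehicle, values that overlap (log2 0.13, limma adjusted p = 0.29). Lpin1 and Lpin2 encode lipins, the phosphatidate phosphatases that supply diacylglycerol. Neither passed, at log2 -0.27 (95% interval -0.63 to 0.09) and -0.15 (interval -0.40 to 0.10). Without stearic acid replicate 1 both passed as lower, Lpin1 at log2 -0.44 and Lpin2 at -0.25 (limma adjusted p = 0.0074 and 0.049). That fit called far more genes at large, 5010 over all genes tested, against 2856 with all 6 libraries. Among the 32 genes it kept the 9 changes and added 5, so passing there does not set Lpin1 and Lpin2 apart. Over the fits that left out each library, Lpin1 ranged from -0.44 to -0.10 and Lpin2 from -0.25 to -0.05. For Lpin1 the change against the vehicle mean was 0.08 in treated replicate 1, -0.60 in replicate 2 and -0.28 in replicate 3, so the treated libraries did not go 1 way.

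Of the enzymes that finish a triglyceride, only Dgat1 could be tested against the threshold, and it did not pass. Dgat1, an acyl-CoA:diacylglycerol acyltransferase of the endoplasmic reticulum, was at 12.8, 10.5 and 11.2 TPM with stearic acid and 12.3, 11.1 and 12.2 TPM with vehicle. These values overlap, and the log2 change of -0.04 had a 95% interval of -0.25 to 0.16. Dgat2, an unrelated protein with the same activity, was low in both groups, at 0.966, 1.08 and 0.879 TPM with stearic acid and 0.913, 0.816 and 0.744 TPM with vehicle. Its values overlap, and the two-sided exact permutation p of 0.20 comes from a design that cannot go below 0.10, so it says nothing either way.

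In the Kennedy pathway 1 of 7 genes fell (14.3%, against 11.9% lower among all genes tested) and 6 did not pass. The median log2 change was -0.15. Cept1, which makes phosphatidylcholine and phosphatidylethanolamine from diacylglycerol (chromosome 3, 106502260 to 106547802), had 25.8, 22.2 and 23.2 TPM with stearic acid, against 28.4, 28.4 and 28.7 TPM with vehicle. It fell by 0.26 on the log2 scale (SE 0.08, limma adjusted p = 0.039). Cept1 overlaps Dennd2d by 771 bases and Dram2 by 5 bases on the other strand; Dennd2d was at 4.29 TPM with stearic acid and 4.97 TPM with vehicle. Pcyt1a, the rate-limiting enzyme of phosphatidylcholine synthesis, was at 84.1, 68.4 and 71.2 TPM with stearic acid and 74.3, 66.2 and 77.3 TPM with vehicle, values that overlap (log2 0.04, 95% interval -0.18 to 0.25). The choline kinases Chka (log2 -0.16) and Chkb (log2 -0.03), the ethanolamine enzymes Etnk1 (log2 -0.15) and Pcyt2 (log2 -0.02) and the cholinephosphotransferase Chpt1 (log2 -0.20) did not pass either. In Etnk1 and Chpt1, as in Cept1, every treated library lay below every vehicle library. Groups thus did not overlap in 3 of the 7 genes, a count near the 44.6% of all genes tested. Chpt1 passed as lower without stearic acid replicate 1 (log2 -0.28, limma adjusted p = 0.033). As many as 5010 of all genes tested changed in that fit, against 2856 with all 6 libraries. Intervals of all 7 genes lay between -0.43 and 0.25, so changes beyond that range fell outside them.

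Phosphatidylserine genes did not pass. The synthases Ptdss1 and Ptdss2 were at log2 -0.07 and -0.12. Pisd, the mitochondrial decarboxylase that turns phosphatidylserine into phosphatidylethanolamine, had 116, 110.3 and 107 TPM with stearic acid and 117, 104 and 117 TPM with vehicle, values that overlap (log2 -0.02). RefSeq lists transcribed pseudogene copies of Pisd, and how reads shared with them were counted is not given in the sources used here. Intervals of these 3 genes lay between -0.31 and 0.15.

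The 3 genes that turn CDP-diacylglycerol into phospholipids did not pass. Pgs1, which starts phosphatidylglycerol and cardiolipin synthesis, was at 53.1, 67.2 and 58.4 TPM in treated libraries and 50.9, 44.96 and 48.7 TPM in vehicle libraries. Crls1, the cardiolipin synthase, was at 28.2, 34.4 and 31.1 TPM with stearic acid and 25.9, 26.3 and 26.2 TPM with vehicle. Groups did not overlap in either gene, and the log2 changes of 0.30 and 0.25 lay just outside the threshold (SE 0.10 and 0.08, limma adjusted p = 0.051 and 0.059). Both passed as higher without stearic acid replicate 1 (limma adjusted p = 0.0035 and 0.0074), a fit in which 5010 of all genes tested changed, against 2856 with all 6 libraries. Cdipt, the phosphatidylinositol synthase and the most abundant of all 34 genes per length, was at 128, 136 and 136 TPM with stearic acid and 131, 113 and 128 TPM with vehicle, values that overlap (log2 0.11).

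The 3 treated libraries did not lie equally far from vehicle, and the source of this difference was not tested. Against the vehicle mean, treated replicate 1 lay nearest and replicate 2 farthest in 7 of the 9 changed genes. Among all 2856 changed genes, replicate 1 lay nearest in 82.1% and replicate 2 farthest in 91.4%. Lpcat3 and Agpat2 were the exceptions: Lpcat3 changed by 0.53, 0.50 and 0.56 and Agpat2 by 0.37, 0.29 and 0.26 on the log2 scale in replicates 1, 2 and 3. Lpcat2 changed by -0.35, -0.93 and -0.64 and Agpat4 by 0.47, 1.02 and 0.73 in the same order. With each of the 6 libraries removed in turn, Lpcat3 and Lpcat1 still passed (limma adjusted p up to 0.019 and 0.044). Agpat4 did not pass without vehicle replicate 2 (0.054), nor Lpcat2 without vehicle replicate 2 or 3 (up to 0.067), nor Agpat2 without vehicle replicate 2 or 3 or stearic acid replicate 3 (up to 0.087). Agpat1, Agpat5, Cds1 and Cept1 passed in 1 of the 6 fits each, the fit lacking treated replicate 1 (in the others, limma adjusted p reached 0.15).

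**Figure D4:**
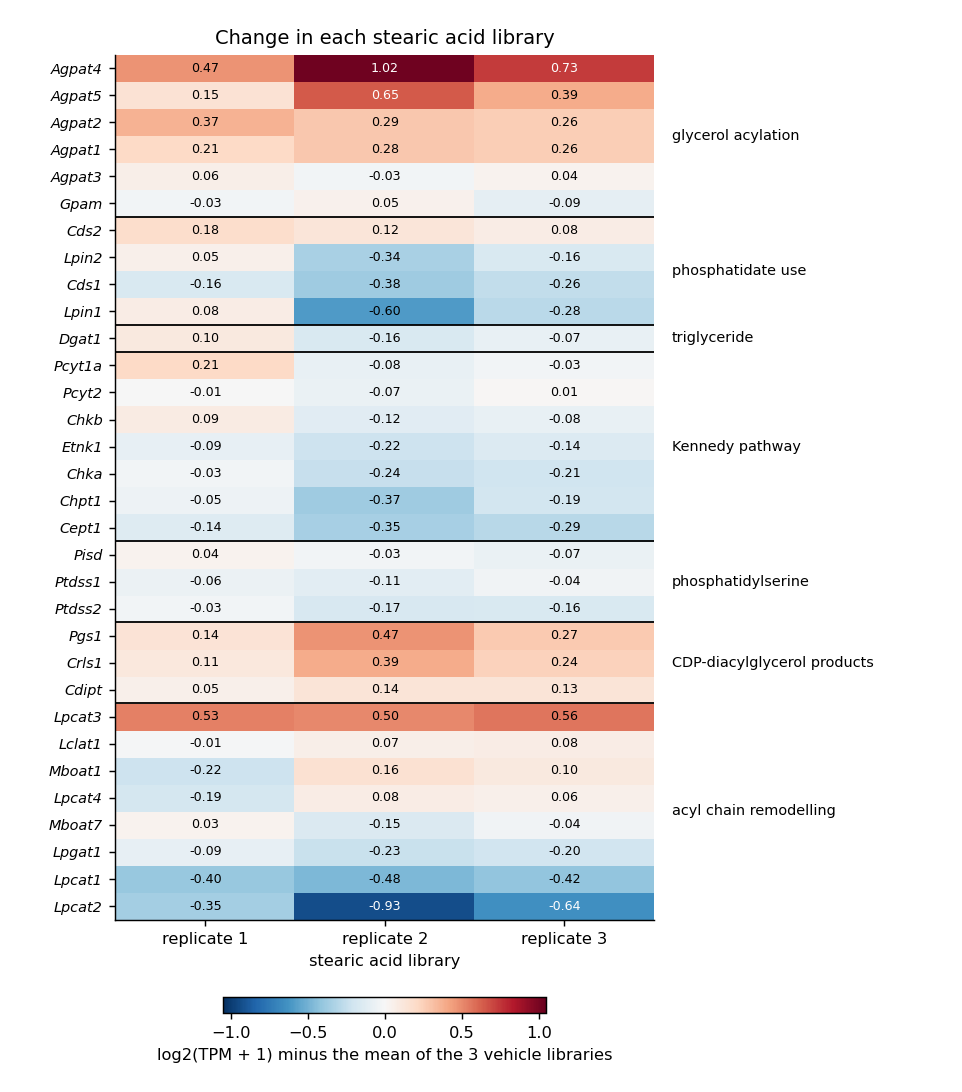
Each cell gives log2(TPM + 1) in 1 stearic acid library minus the mean of the 3 vehicle libraries, for 32 genes in rows by step and replicates 1 to 3 in columns, on a blue to red scale. Replicate 2 has the deepest colours in 7 of the 9 genes that changed, and Lpcat3 is nearly even across replicates at 0.50 to 0.56.

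Beside the 34 genes, 54 further glycerolipid genes were listed in 7 groups, and 47 of them were tested. Of these 10 rose, 2 fell and 35 did not pass, or 25.5% changed, with a median log2 change of -0.01. Over all genes tested 24.7% changed (12.8% higher and 11.9% lower), so this share also lay at the background, and the genes named below are described one by one and not as a pattern. Among 7 tested phosphatidate phosphatases and lipin regulators 3 rose (Plpp3, Plpp5 and Plpp2). Plpp3, a membrane phosphatase of lysophosphatidate and phosphatidate, was at 6.63, 10.4 and 7.69 TPM with stearic acid, against 2.00, 1.45 and 1.89 TPM with vehicle (log2 1.72, SE 0.15, limma adjusted p = 0.00036). Plpp5 was at 25.3, 38.3 and 32.5 TPM in treated libraries and 23.1, 21.3 and 21.8 TPM in vehicle libraries (log2 0.50, SE 0.13). Groups did not overlap in either gene.

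Of 13 phospholipases and lysophospholipases, 3 rose (Pla2g7, Pla2g12a and Lypla2) and 10 did not pass, beside 12.8% higher among all genes tested. Pla2g7, which encodes the secreted platelet-activating factor acetylhydrolase, was at 106, 112 and 104 TPM with stearic acid and 51.5, 49.8 and 50.6 TPM with vehicle (log2 1.07, SE 0.06, limma adjusted p = 6.2e-05). Levels of Pla2g7 did not overlap and varied little within each group. Pla2g12a, a secreted phospholipase A2, was at 8.70, 11.8 and 10.04 TPM with stearic acid and 7.70, 6.62 and 7.10 TPM with vehicle (log2 0.45, SE 0.11).

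The counts in the next 4 lists stand beside 12.8% higher and 11.9% lower among all genes tested. Among 5 other choline and ethanolamine genes 1 fell: Pcyt1b, the paralogue of Pcyt1a, was at 7.00, 2.32 and 4.09 TPM with stearic acid and 9.79, 8.66 and 10.8 TPM with vehicle (log2 -1.06, SE 0.26, limma adjusted p = 0.023). Among 5 genes of glycerol 3-phosphate supply and its acylation 1 rose, the endoplasmic reticulum acyltransferase Gpat4, at 46.7, 54.4 and 50.6 TPM with stearic acid and 42.0, 40.2 and 43.1 TPM with vehicle (log2 0.27, SE 0.08). Of 5 other cardiolipin genes 1 rose, the phosphatase Ptpmt1 that follows Pgs1, at 43.4, 48.8 and 47.3 TPM in treated libraries and 39.0, 39.7 and 38.6 TPM in vehicle libraries (log2 0.24, SE 0.07). Groups did not overlap in these 3 genes, as in 44.6% of all genes tested. Of 8 diacylglycerol kinases 1 rose, Dgke, at 6.17, 6.61 and 6.31 TPM with stearic acid and 5.10, 4.59 and 5.28 TPM with vehicle (log2 0.30, SE 0.08).

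In ether lipid synthesis 1 of 4 tested genes rose and 1 fell, beside 12.8% higher and 11.9% lower among all genes tested. Tmem189, the plasmanylethanolamine desaturase that makes plasmalogens, was at 234, 271 and 249 TPM with stearic acid and 186, 159 and 172 TPM with vehicle (log2 0.54, SE 0.08, limma adjusted p = 0.0043). Far1, which makes the fatty alcohol for ether lipids, had 68.5, 62.1 and 65.7 TPM with stearic acid and 76.1, 74.5 and 83.6 TPM with vehicle (log2 -0.25, SE 0.07). Plpp3, Pla2g7 and Tmem189 passed with any 1 of the 6 libraries removed. Plpp5, Plpp2, Pla2g12a, Lypla2, Pcyt1b, Gpat4, Ptpmt1, Dgke and Far1 passed in 1 or 2 of those fits (limma adjusted p up to 0.15 in the others).

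The libraries carried the defining genes of macrophages and little of other cells. Of 8 macrophage markers 4 fell and 1 rose, beside 11.9% lower and 12.8% higher among all genes tested. Their summed level was 23296 to 28828 TPM in treated libraries and 32651 to 33565 TPM in vehicle libraries. Lyz2 made up most of that sum and of the difference, at 17694 to 22359.5 TPM in treated libraries and 25775 to 27176 TPM in vehicle libraries. Adgre1, Itgam and Fcgr1 also fell, Cd68 rose, and Csf1r, Mertk and Cd14 did not pass. The part of these marker differences in the lower levels of Lpcat1, Lpcat2, Cds1 and Cept1 was not tested. Neutrophil markers summed to 6.32 to 7.22 TPM with stearic acid and 2.45 to 4.71 TPM with vehicle, most of it S100a8, which rose (log2 0.81, limma adjusted p = 0.016). Of these 7 markers Mpo, Elane and Ly6g stayed below 0.1 TPM in every library. S100a9, Camp and Ltf also lay below the filter, with groups that overlapped. Their means were 0.145, 0.0220 and 0.0497 TPM with stearic acid and 0.295, 0.103 and 0.0479 TPM with vehicle. Dendritic, lymphoid, stromal, erythroid and mast cell markers summed to at most 2.68 TPM per list with stearic acid and 3.47 TPM with vehicle, and Cd3e, Cd3d, Nkg7, Hbb-bs and Tpsb2 were listed at 0 in all 6 libraries. Approximate depths, read off the spacing of low values, were 64.0 to 76.4 M for stearic acid libraries and 58.1 to 80.8 M for vehicle libraries, in reads or read pairs.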

How the data were processed

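RNA of 3 stearic acid and 3 vehicle macrophage samples was analysed from 1 table per library. The authors deposited 2 measures: TPM, summing to 1e+06 in each library, and RPKM (reads per kilobase, scaled to depth), a constant multiple of TPM within a library; both units are named per the file headers. The submitters' processing notes name DRAGEN (version not given) and the builds GRCm38 and mm10, names of the same assembly. The annotation, the counting rule and any use of strand are not stated.

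All genes averaging 1 TPM or more over the 6 libraries were tested with limma 3.58.1 (R 4.3.3) on log2(TPM + 1), with an intensity-dependent prior, treatment as the only term, Benjamini-Hochberg adjustment over all 11551 genes and a threshold of 0.05. Fold changes on this scale understate the change of low genes. The fit was tested on simulated data. Intervals are 95% and unadjusted. Dgat2 and Mboat2, below the filter, had an exact permutation test. Alternatives were other pseudocounts (0.1 and 5), no filter or a mean of 5 TPM, RPKM, median-of-ratios scaling, quantile normalization, no trend in the prior, a replicate block and leaving out each library.

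Depth was estimated from the steps between low RPKM values of short pseudogenes and small RNA genes, searching 40 to 100 M reads. At the best depth 45.6% to 58.8% of these values were whole reads within 0.02, too few to rebuild counts, so the depth is approximate. The 34 genes, the 54 further genes and the markers were chosen with earlier results of these data known. Values of every library are given for each gene that changed, for the most abundant gene of each step, and for at most 2 changed genes of each further list (smallest p). Genes just outside the threshold, Lpgat1, and the 2 below the filter were added after their values were seen. Gpat3 and Selenoi were found as Agpat9 and Ept1 through their gene numbers. RefSeq (GRCm38.p6) gave coordinates and promoters, and GENCODE M21 gave strands. Proteins were not used here.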

Additional observations from a re-analysis of the deposited data

How the results depend on the processing

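The direction of the 9 changes was kept in every one of the 15 alternatives run. With no filter on low values the genes that changed numbered 1027 over all genes, 2 higher and 1 lower among the 34 (Lpcat3, Agpat4 and Lpcat1), 1 higher in glycerol acylation, 0 lower in phosphatidate use, 0 lower in the Kennedy pathway, 1 lower in remodelling, and 3 higher and 0 lower among the further genes. More genes are tested in that setting. Agpat5 did not pass with median-of-ratios scaling or quantile normalization (limma adjusted p = 0.052 and 0.057). Of the CDP-diacylglycerol genes, 1 passed as higher with a filter of 5 TPM (Pgs1), and 2 with RPKM and 2 with the replicate block (Pgs1 and Crls1); Lpgat1 passed as lower with quantile normalization.

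Leaving out 1 library gave 550 to 5010 changed genes in all. Among the 34 it gave 1 to 7 higher and 1 to 7 lower, with 0 to 4 higher in glycerol acylation, 0 to 3 lower in phosphatidate use, 0 to 2 lower in the Kennedy pathway, 0 to 2 higher among CDP-diacylglycerol genes and 1 to 2 lower in remodelling. Among the further genes it gave 3 to 15 higher and 0 to 6 lower. Over all genes and among the 34, the lowest counts came without vehicle replicate 2 and the highest without stearic acid replicate 1.

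Whether samples of the same number form pairs is not settled by these data. Deviations from the group means correlated at 0.0703, 0.288 and 0.0387 for samples numbered 1, 2 and 3 in both groups. For samples of different numbers the range was -0.318 to 0.275. The value of 0.288 was the highest of all, while treated replicate 1 correlated best with vehicle replicate 3 (0.275). With the replicate block the 9 changes stayed, and 6 of the 54 further genes fell, against 2 without the block. Over all genes 3638 changed with the block, against 2856 without it.

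The log2 changes of some genes that did not pass turned sign. With RPKM, Gpam was at 0.012, Pcyt2 at 0.023, Chkb at 0.0097, Pisd at 0.025 and Lpcat4 at 0.024. With median-of-ratios scaling Pcyt2 was at 0.0021, Pisd at 0.0043 and Lpcat4 at 0.0050, and with quantile normalization Gpam was at 0.0077. With 1 library left out, the log2 changes that turned sign ranged as follows: Gpam from -0.0655 to 0.0214, Agpat3 from -0.0383 to 0.0618, Dgat1 from -0.116 to 0.0146, Pcyt1a from -0.0535 to 0.0936, Pcyt2 from -0.106 to 0.0495, Chkb from -0.0969 to 0.0068, Pisd from -0.0766 to 0.0116, Lpcat4 from -0.0648 to 0.0676, Mboat1 from -0.0586 to 0.13.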
